A study of Danio rerio with 12 samples.

Results

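The zebrafish Piwi genes piwil1 (ziwi, ENSDARG00000041699) and piwil2 (zili, ENSDARG00000062601) were followed through 12 single juvenile gonads. They were chosen by their Ensembl identifiers and were 2 of the 32520 genes in the count table. The name table used here held no other gene with a piwil symbol, and both genes had at least 1629 counts in every gonad and passed the filter on low counts. Polyadenylated RNA was sequenced from 3 ovaries and 3 testes at 30 days post fertilization (dpf), and from 2 ovaries and 4 testes at 25 dpf. All 12 fish were of the AB strain and carried the transgene Tg(piwil1-egfp-nos3UTR)ihb327Tg, a reporter that takes its name from piwil1, a green fluorescent protein and the nanos3 3′ region. There was therefore no gonad without the transgene. Which transcribed bases of piwil1 it holds is not given in the sources used here, and any reads from such bases would be counted with the endogenous gene.

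Piwi proteins are the germline branch of the Argonaute family. They bind piRNAs, small RNAs of germ cells that guide them to transposon transcripts, which they cleave. In zebrafish, loss of Ziwi leads to death of germ cells, and loss of Zili blocks their differentiation and meiosis. Both proteins work in perinuclear granules of the germ cell, called nuage, together with Tudor domain proteins, RNA helicases and enzymes on the outer membrane of mitochondria that make and finish piRNAs.

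The total count per gonad was 4471588 to 5331223. Each gonad was a separate sample. Counts differed between the gonads of a group by more than sampling noise (chi-square per degree of freedom of at least 10.2). None was therefore counted as the same library sequenced again. The check cannot tell separate libraries of the same gonad from libraries of different gonads. The labelled sex was checked with marker genes. All 9 oocyte genes measured were higher in ovaries, among them zp2.1, figla, zar1 and h1m, and their summed level was 7177 to 10876 CPM (counts scaled to library size with TMM factors) in 30 dpf ovaries and 307 to 943 CPM in 30 dpf testes. At 25 dpf it was 4554 to 5798 CPM in ovaries and 299.7 to 1398 CPM in testes. Transcripts of this list were thus present in every testis, though not of each gene. zar1 had at least 181 counts in each testis, whereas zp2.1 had 0 to 77. The study itself picked a gene of this list (not named here) on these gonads, so that it is not independent evidence of this direction. The 3 Sertoli genes measured parted the sexes less well. All were called lower in ovaries averaged over both ages and at 30 dpf, but 0 of the 3 at 25 dpf, and ovaries and testes overlapped for each. Of all 19292 genes tested, 4223 were called higher in ovaries averaged over both ages and 4108 lower. Lower calls numbered 3188 at 30 dpf and 886 at 25 dpf, and ovaries and testes overlapped for 15356 genes. The 0 of 3 at 25 dpf and the overlap were therefore not particular to these genes. amh stood at 12.04 to 27.4 CPM in the 30 dpf ovaries, against 15.5, 529.7 and 1041 CPM in the 30 dpf testes, and at 19.6 and 31.2 CPM in the 25 dpf ovaries, against 9.15 to 36.4 CPM in the 25 dpf testes. Of 5 matched genes that mark late male germ cells, spata4 (54 to 201 counts) and tekt1 (6 to 69 counts) were present in every gonad. Ovaries were included in this, and neither gene differed past the threshold. The other genes of this list were too low to be tested, with at most 11 counts in any gonad, and each had 0 counts in some gonads.

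Both Piwi genes were about 2-fold higher in ovaries, with every ovary above every testis. piwil1 stood at 2877, 2507 and 2812 CPM in the 30 dpf ovaries, against 1039, 1028 and 1103 CPM in the 30 dpf testes. At 25 dpf it stood at 1875 CPM in each of the ovaries, against 1179, 1134, 1060.0 and 1254 CPM in the testes. The lowest ovary was therefore well above the highest testis, and no testis of either age came near the ovaries. The order of group means was 30 dpf ovaries (2732 ± 198 CPM, SD, n = 3), 25 dpf ovaries (n = 2), 25 dpf testes (1157 ± 81.4 CPM, SD, n = 4) and 30 dpf testes (1057 ± 40.4 CPM, SD, n = 3). The testes of the 2 ages overlapped, whereas the other neighbours in this order did not.

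piwil2 followed the same order. It stood at 791, 742 and 996 CPM in the 30 dpf ovaries, against 366, 339 and 356 CPM in the 30 dpf testes. At 25 dpf it stood at 591 and 683 CPM in the ovaries, against 354, 336, 355 and 412 CPM in the testes. The third 30 dpf ovary was the highest of all gonads for piwil2, while the first was the highest for piwil1. At 30 dpf the means were 843 ± 135 CPM in ovaries and 354 ± 13.8 CPM in testes (SD, n = 3 each). At 25 dpf they were 637 ± 65.4 CPM in ovaries (SD, n = 2) and 364 ± 33.4 CPM in testes (SD, n = 4). The testes of both ages again overlapped. Gene lengths were not used here, so the level of piwil1 was not compared with that of piwil2.

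**Figure D1:**
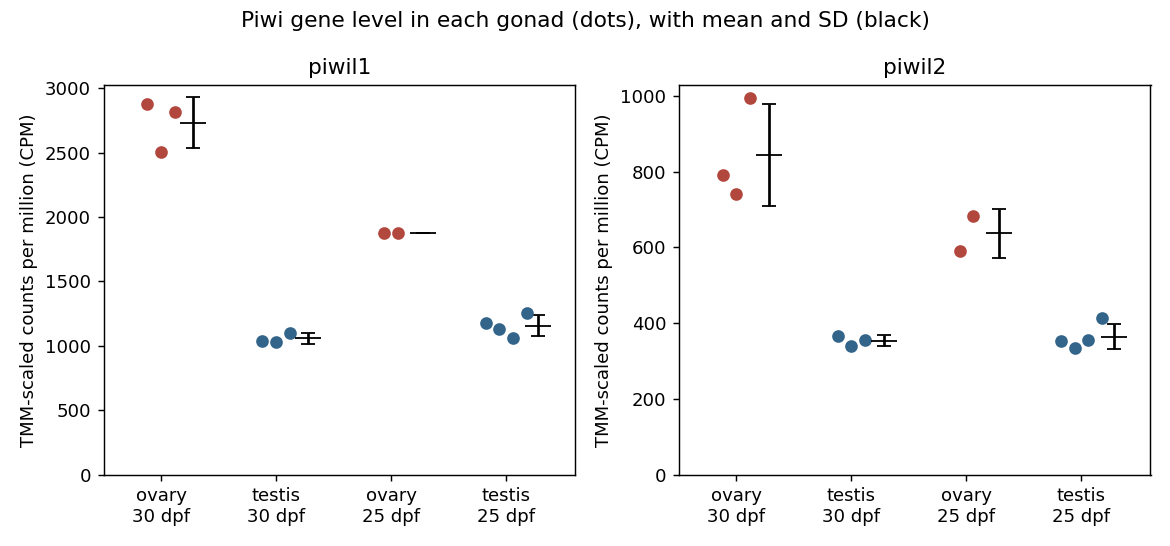
TMM-scaled CPM of piwil1 (left) and piwil2 (right) in each gonad (dots) by sex and age, with the group mean and SD in black. All 5 ovaries sit above all 7 testes for both genes, and the 30 dpf ovaries sit above the 25 dpf ovaries.

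Averaged over both ages, the log2 fold change of ovary over testis was 1.03 ± 0.081 (SE) for piwil1, with a 95% interval of 0.86 to 1.21 and an adjusted p of 2.97e-05 in edgeR's quasi-likelihood test over all genes. For piwil2 it was 1.03 ± 0.11 (SE), with an interval of 0.80 to 1.26 and an adjusted p of 5.82e-05. In this comparison 21.9% of the 19292 genes tested were called higher in ovaries, so that a call in this direction was common in these gonads. Every ovary stood above every testis for 12.2% of the genes tested. The median log2 fold change of all genes tested was -0.13. p-values measure the spread between these single gonads, and in whole gonads a change in the number of cells of a type and a change in RNA per cell cannot be told apart. All 9 oocyte genes and 5 of the 6 genes listed for early germ cells were also called higher in ovaries, the exception being nanos2. Their part in the Piwi difference was not tested.

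At 30 dpf the difference was 1.37 ± 0.11 (SE) on the log2 scale for piwil1 (adjusted p = 0.00014, edgeR) and 1.25 ± 0.15 (SE) for piwil2 (adjusted p = 0.00026, edgeR), where 18.7% of all genes tested were called higher in ovaries. At 25 dpf it was 0.70 ± 0.12 (SE) for piwil1 (adjusted p = 0.0066, edgeR) and 0.81 ± 0.15 (SE) for piwil2 (adjusted p = 0.0090, edgeR), where 8.64% were called. Leaving out either 25 dpf ovary leaves a single one, whose variation is assumed to be like that of the other groups. Without the first ovary the difference was 0.73 for piwil1 and 0.94 for piwil2, and both calls held. Without the second it was 0.74 for each gene, and neither call held. For piwil1 that loss came without a smaller difference (0.70 with both ovaries), and the gene stood at 1875 CPM in each of them. Both genes kept their calls at 30 dpf and averaged over both ages whichever gonad was left out.

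The larger difference at 30 dpf was tested as an interaction of sex with age. The difference was larger at 30 dpf than at 25 dpf by 0.67 ± 0.16 (SE) on the log2 scale for piwil1 (adjusted p = 0.39, edgeR) and by 0.45 ± 0.21 (SE) for piwil2 (adjusted p = 0.51, edgeR), and neither passed the threshold. The edgeR test called 0 genes here (0% of 19292), although 1952 fell under 0.05 before adjustment. DESeq2 called 65. piwil1 was among those called by DESeq2, with 0.70 (adjusted p = 0.030, DESeq2).

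Between the ages within each sex, the scaled values of the Piwi genes did not overlap in ovaries and overlapped in testes. No difference passed in edgeR. The share of all genes tested whose values were likewise separated between the ages of ovaries is not given here. With so few ovaries, this separation was therefore not shown to be particular to the Piwi genes. In CPM both genes were higher in all 3 of the 30 dpf ovaries than in either 25 dpf ovary. For piwil2 this rested on the TMM factors, 0.818 and 0.855 in the first and second 30 dpf ovaries and 0.962 in the second 25 dpf ovary. As a share of the total count, piwil2 in those 30 dpf ovaries lay below that 25 dpf ovary (2944 of 4555409 and 2833 of 4480957, against 3348 of 5110156). The log2 difference between the ages was 0.54 ± 0.13 (SE) for piwil1 and 0.40 ± 0.17 (SE) for piwil2. Neither passed in edgeR (adjusted p = 0.30 and 0.40), which called 0 genes between the ages of ovaries (0%, with 2215 under 0.05 before adjustment). There were 139 calls by DESeq2 there, and piwil1 passed in it with 0.58 (adjusted p = 0.0094, DESeq2). The summed oocyte genes were also higher in every 30 dpf ovary than in either 25 dpf ovary, as given above, and their part in these values was not tested. In testes the log2 difference of 30 over 25 dpf was -0.13 ± 0.10 (SE) for piwil1 (adjusted p = 0.65, edgeR) and -0.04 ± 0.14 (SE) for piwil2 (adjusted p = 0.94, edgeR), and 0.00518% of genes, a single gene, were called.

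No difference between the sexes in the proportion of piwil1 to piwil2 was detected. The log2 ratio of their counts within a gonad does not depend on the scaling between libraries, or on gene length when sexes are compared. It was 1.65 ± 0.17 (SD, n = 5) in ovaries and 1.63 ± 0.089 (SD, n = 7) in testes. The removal of duplicate reads, described below, and any transgene reads in piwil1 could still change this ratio, which was not tested. The difference of ovary minus testis, taken within each age and averaged, was 0.01 with a 95% interval of -0.18 to 0.19 (exact permutation of sexes within age, two-sided, p = 0.91, adjusted over 5 ratios 0.91). The interval thus holds changes of either sign up to about 0.2 on the log2 scale. Over 300 assignments the smallest p this test allows is 0.0033.

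**Figure D2:**
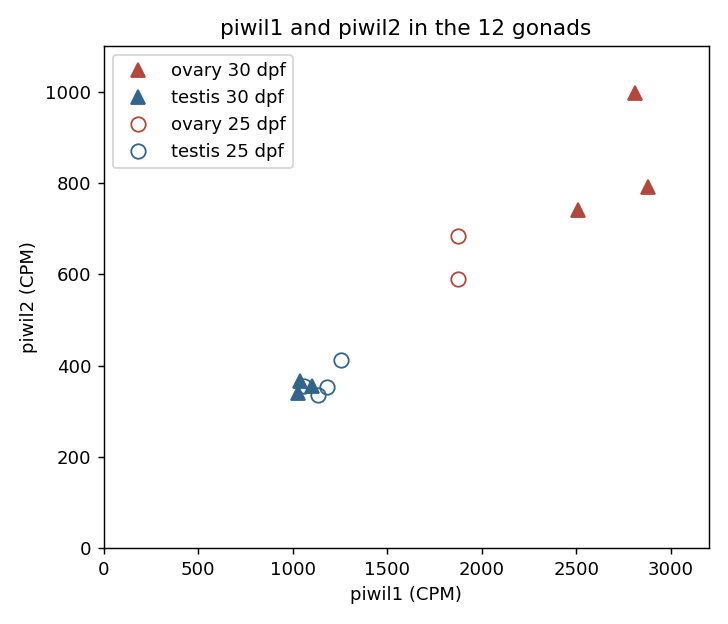
TMM-scaled CPM of piwil1 (horizontal) against piwil2 (vertical) in the 12 gonads, with red for ovaries, blue for testes, filled triangles for 30 dpf and open circles for 25 dpf. The 7 testes lie close together at 1028 to 1254 CPM of piwil1, below and to the left of the 5 ovaries.

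The Piwi genes were next set against other germ cell genes, ddx4 (vasa, an RNA helicase of the nuage) and dazl (an RNA-binding regulator of translation). Both are also listed for early germ cells, and neither was shown to measure the total of germ cells. The log2 ratio of piwil1 to ddx4 averaged 1.89 ± 0.19 (SD, n = 5) in ovaries and 1.77 ± 0.18 (SD, n = 7) in testes. Its difference within age was 0.12, with a 95% interval of -0.11 to 0.36 (exact permutation, p = 0.30, adjusted 0.44). The ratio of piwil2 to ddx4 differed by 0.11, with an interval of -0.16 to 0.38 (exact permutation, p = 0.35, adjusted 0.44). Relative to ddx4, the sexes thus overlapped widely for both genes, and ddx4 itself was higher in ovaries by 0.91 ± 0.13 (SE) on the log2 scale (adjusted p = 0.00037, edgeR).

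Relative to dazl the mean ratios were higher in ovaries, but the sexes overlapped. The log2 ratio of piwil1 to dazl averaged 2.49 ± 0.34 (SD, n = 5) in ovaries and 2.07 ± 0.26 (SD, n = 7) in testes, a difference within age of 0.37 (interval 0.01 to 0.75, exact permutation p = 0.05, adjusted 0.25). For piwil2 the ratio averaged 0.84 ± 0.44 in ovaries and 0.44 ± 0.31 in testes (SD, n = 5 and 7), a difference of 0.36 (interval -0.12 to 0.89, exact permutation p = 0.13, adjusted 0.33). Neither passed after adjustment over the 5 ratios. The third 30 dpf ovary, which had the lowest dazl level among ovaries (335 CPM), gave the highest of both ratios.

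**Figure D3:**
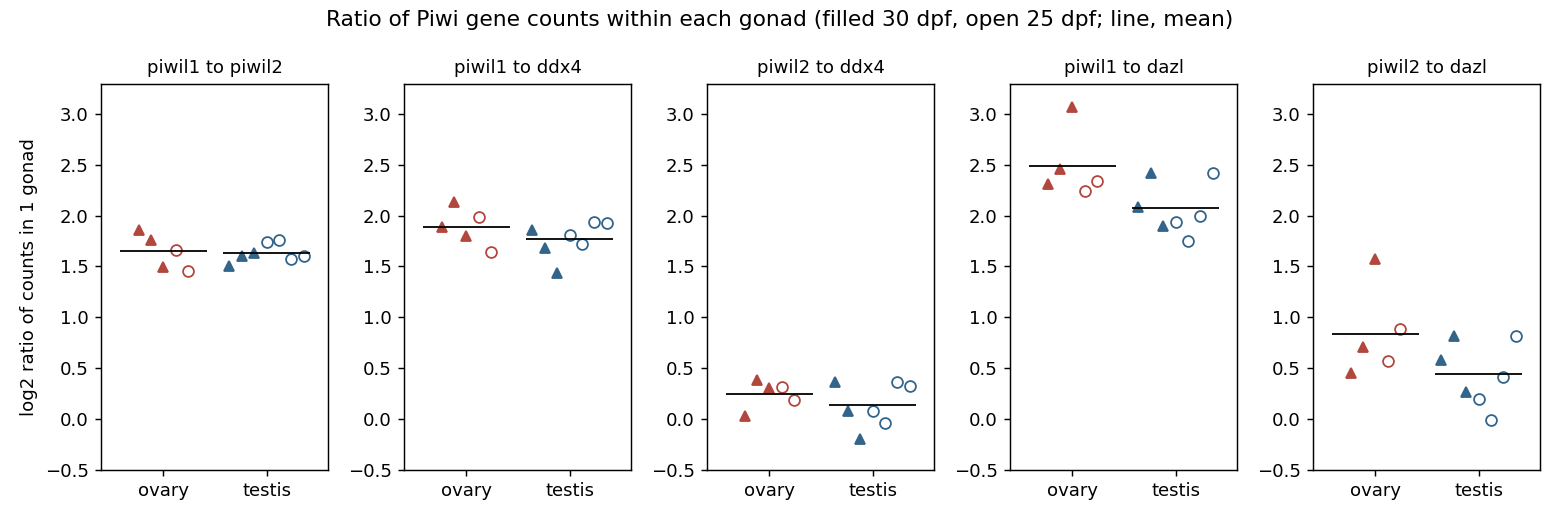
Log2 ratio of counts within each gonad for piwil1 to piwil2 and for each Piwi gene to ddx4 and to dazl, ovaries left and testes right, filled triangles for 30 dpf and open circles for 25 dpf, with lines at the mean of each sex. The sexes overlap in all 5 ratios, and for piwil1 to piwil2 the lines lie at 1.65 in ovaries and 1.63 in testes.

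The genes that make piRNAs or build the nuage mostly moved with the Piwi genes. Of 24 genes listed, 19 were matched by symbol and 18 were tested, since tex15 had at most 4 counts in a gonad. Averaged over both ages 16 of the 18 were higher in ovaries, gtsf1 was lower and tdrkh did not pass, with a median log2 fold change of 1.03. Of all genes tested, 21.9% were called higher in ovaries and the median was -0.13. The count of 16 was 14 with the replicate block and 14 to 16 with single gonads left out. In 11 of the 18 every ovary stood above every testis, which held for 12.2% of all genes tested. The study itself picked pld6, rnf17 and tdrd5 on these gonads, so that they are not independent evidence of this direction.

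Among the genes for the making of piRNAs at mitochondria, gpat2, an outer membrane protein needed for piRNA production in mouse, was higher by 1.36 ± 0.14 (SE) on the log2 scale, with 276 to 471 CPM in ovaries and 114 to 187 CPM in testes. asz1, a scaffold that joins nuage to mitochondria in mouse, was higher by 1.62 ± 0.37 (SE) at low levels (13.8 to 41.0 CPM in ovaries and 3.92 to 15.3 CPM in testes). pld6, a mitochondrial outer membrane protein related to phospholipase D whose fly counterpart Zucchini forms piRNA ends, had the smallest called difference of the list, 0.44 ± 0.16 (SE) (adjusted p = 0.044, edgeR), and its ovaries and testes overlapped (160.2 to 286 CPM in ovaries and 145 to 241 CPM in testes). exd1, which partners tdrd12 in mouse and silkworm, was higher by 1.93 ± 0.15 (SE), with 432 to 637 CPM in ovaries and 98.0 to 210.4 CPM in testes. tdrd12 itself was higher by 1.42 ± 0.21 (SE). henmt1, the methyltransferase that protects the 3′ end of piRNAs, was higher by 0.93 ± 0.24 (SE), and fkbp6, a co-chaperone needed for piRNA loading in mouse, by 1.59 ± 0.26 (SE). tdrkh, which helps to trim piRNAs in mouse, differed by 0.25 ± 0.35 (SE) (adjusted p = 0.58, edgeR).

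Of the Tudor domain scaffolds and helicases of the nuage, tdrd6, which organizes germ plasm in zebrafish, was higher in ovaries by 1.28 ± 0.16 (SE) and the helicase gene tdrd9 by 1.03 ± 0.13 (SE), the same size as for the Piwi genes. tdrd15 was higher by 1.04 ± 0.15 (SE), the helicase gene ddx43 by 1.12 ± 0.21 (SE), rnf17 by 0.88 ± 0.12 (SE), tdrd7a by 0.87 ± 0.15 (SE) and tdrd5 by 0.56 ± 0.14 (SE). These 7 genes all passed in edgeR.

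tdrd1 and gtsf1 were uneven between gonads of the same group. tdrd1, a Tudor scaffold that binds Piwi proteins, stood at 882, 261 and 8.33 CPM in the 30 dpf ovaries, against 363, 2.89 and 3.23 CPM in the 30 dpf testes. At 25 dpf it stood at 504 and 7.55 CPM in the ovaries, against 3.26, 5.81, 3.22 and 2.87 CPM in the testes. A single testis thus reached the range of the high ovaries, and the averaged log2 difference of 3.85 had an SE of 1.35 (adjusted p = 0.038, edgeR). gtsf1, a cofactor of Piwi cleavage in mouse, had at most 3 counts in every ovary. It had 394 and 578 counts in replicates 2 and 4 of the 25 dpf testes and 269 counts in replicate 3 of the 30 dpf testes, and at most 1 count in the other 4 testes. Its fitted log2 difference of -6.80 ± 2.33 (SE) (adjusted p = 0.034, edgeR) therefore came from 3 of the 7 testes. piwil1 and piwil2 showed no such split in the same gonads.

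**Figure D4:**
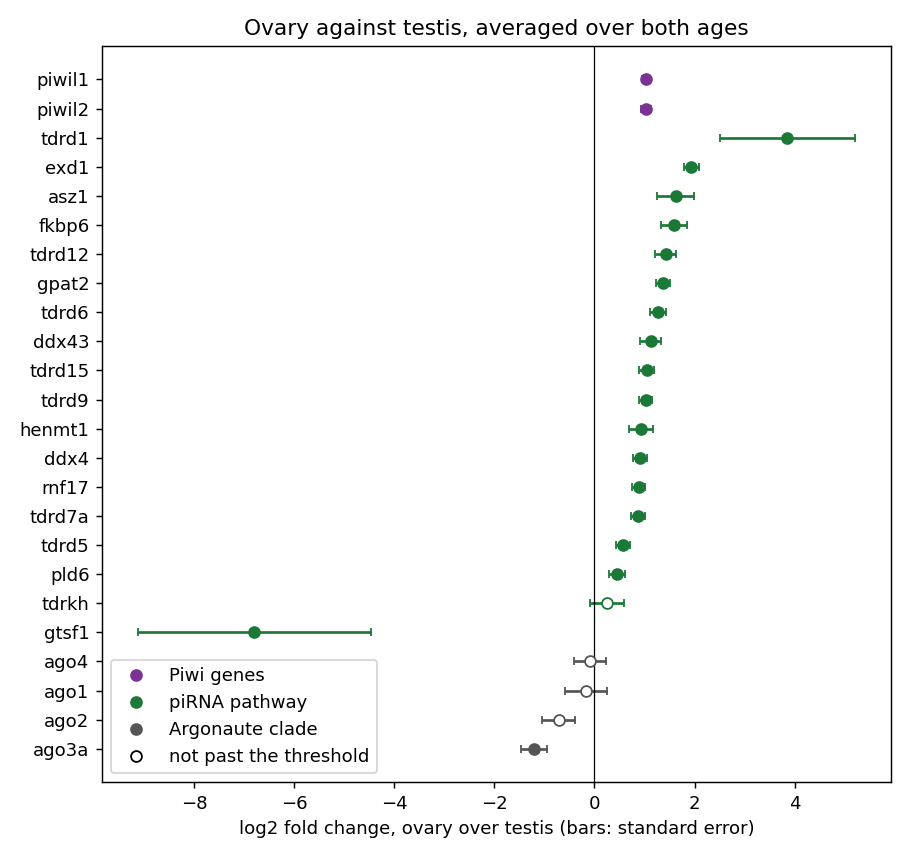
Log2 fold change of ovary over testis averaged over both ages (horizontal, bars are SE) for the Piwi genes, the piRNA pathway genes and the Argonaute genes, with open dots for genes not past the threshold. piwil1 and piwil2 lie at 1.03, tdrd1 and gtsf1 have the widest bars, and 16 of 18 pathway genes lie right of 0 and passed.

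At 30 dpf 13 of the 18 pathway genes were called higher in ovaries and 0 lower, with a median of 1.25 on the log2 scale, where 18.7% of all genes tested were called higher. At 25 dpf 10 were called higher and 0 lower, with a median of 0.81, where 8.64% of all genes tested were called higher. The medians lie close to the differences of piwil1 and piwil2 at the same ages. The count at 25 dpf depended on the single ovaries, and leaving out either of them leaves a lone ovary in the group. The count over all genes tested at 25 dpf also changed with gonads left out, as given below, so this was not particular to the pathway. None of the 18 was called for a dependence on age or between the ages of a sex in edgeR.

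**Figure D5:**
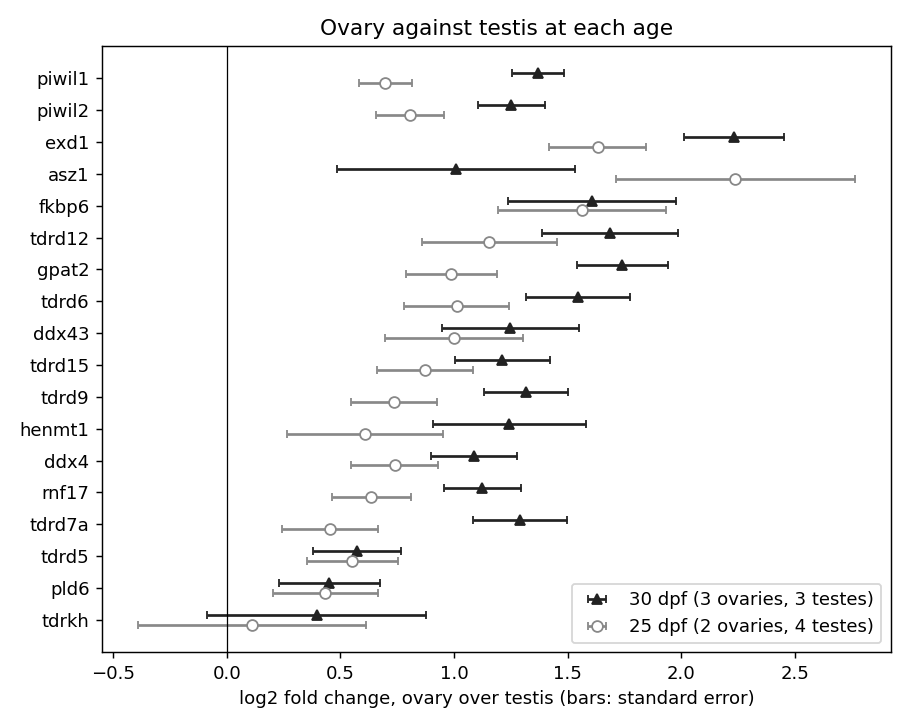
Log2 fold change of ovary over testis (horizontal, bars are SE) at 30 dpf (triangles) and 25 dpf (open circles) for the Piwi genes and the piRNA pathway genes other than the uneven tdrd1 and gtsf1. For piwil1 the triangle lies at 1.37 and the circle at 0.70, for piwil2 at 1.25 and 0.81, and 0 of the genes were called for a dependence on age.

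The proteins of the Argonaute branch of the family carry microRNAs and small interfering RNAs. Of 5 genes listed 4 were matched and tested. Of these 4, 0 were called higher in ovaries, where 21.9% of all genes tested were. So few genes cannot set the branch apart from that share. The 4 genes summed to only 15.4 to 26.1 CPM in ovaries and 21.3 to 29.8 CPM in testes. ago3a was lower in ovaries, with 2.45 to 4.45 CPM in ovaries and 6.05 to 9.15 CPM in testes and a log2 difference of -1.21 ± 0.26 (SE) (adjusted p = 0.0038, edgeR), where 21.3% of all genes tested were called higher in testes. ago1, ago2 and ago4 differed by -0.17, -0.72 and -0.09 and did not pass (adjusted p = 0.77, 0.097 and 0.84, edgeR). The median of the 4 was -0.44.

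Other markers of germ cells differed in how they moved beside the Piwi genes. Of the 6 genes listed for early germ cells, 5 were higher in ovaries averaged over both ages, where 21.9% of all genes tested were called higher. The 5 included ca15b (4.76 ± 1.08), nanos3 (2.53 ± 0.31) and dnd1 (1.61 ± 0.18, log2 differences with SE). The testes with the most zar1, replicates 3 and 4 at 25 dpf and 2 at 30 dpf, had 25.7, 33.9 and 71.3 CPM of ca15b. The other testes had at most 1.81 CPM of ca15b. Which cells the transcripts of this list came from was not tested. ddx4 was counted both among these 5 and among the 16 pathway genes, so the lists are not separate. nanos2, a marker of germline stem cells, had -1.65 ± 0.67 and did not pass (adjusted p = 0.065, edgeR) at levels of at most 5.28 CPM. Reads of the nanos3 3′ region of the transgene could be counted with nanos3. Of 9 meiotic genes only spo11 passed (0.96 ± 0.24, adjusted p = 0.0074, edgeR), and the median was -0.52. sycp3, of the synaptonemal complex, had -0.99 ± 0.38 and did not pass (adjusted p = 0.051, edgeR). The summed meiotic genes stood at 238 to 628 CPM in ovaries and 444 to 704 CPM in testes, which overlapped. Taken singly, all 9 overlapped between the sexes, as did 15356 of the 19292 genes tested, so the overlap was not particular to meiotic genes.

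The genes most like each Piwi gene were ranked by Pearson's r of log2(CPM + 1) over the 12 gonads among all genes tested. All points share the split of ovaries from testes, so that a high r largely repeats that split. For piwil1 the 5 highest were pced1b (0.988), the unnamed gene ENSDARG00000117681 (0.982), rfwd3 (0.982), si:ch73-365k7.1 (0.981) and piwil2 (0.978). For piwil2 they were fscn2 (0.982), piwil1 (0.978), nsun2 (0.978), smu1 (0.976) and rfwd3 (0.975). Each Piwi gene was thus among the 5 genes most like the other, and 185 genes had an r over 0.95 with piwil1 and 67 with piwil2.

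Within the 7 testes, levels of the genes were not shown to follow each other. Pearson's r of log2(CPM + 1) was 0.62 (exact permutation p = 0.14, adjusted over 2 measures 0.28), and Spearman's rho was 0.21 (exact permutation p = 0.66, adjusted 0.66). Without the 2 testes farthest from the median of piwil1, r was -0.57, and without replicate 4 of the 25 dpf testes alone it was -0.15, so that the pooled value rested on that gonad, which had the highest level of both genes among testes. The 5 ovaries were too few for such a correlation.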

How the data were processed

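Single gonads of juvenile zebrafish were dissected, and cDNA from their polyadenylated RNA was amplified and sequenced without molecular identifiers. The submitters' processing notes name FastQC 0.11.8, MultiQC 0.9, HISAT2 2.0.5, SAMtools 1.5, Picard, HTSeq 0.9.1 and the build GRCz11. The authors removed duplicate reads, which without molecular identifiers may compress abundant genes, and deposited reverse-stranded exon counts per gene with no normalization. The count table names gonads big or small. Following the study's description of juvenile gonads and the number of columns of each kind, big ones were assigned to ovaries and small ones to testes, and column numbers were taken as the labels' replicate numbers.

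The deposited counts were filtered with filterByExpr (19292 of 32520 genes kept) and scaled by TMM. The TMM factors were 0.818 to 0.984 in ovaries and 0.995 to 1.12 in testes. All 12 gonads entered 1 quasi-likelihood fit of the 4 group means in edgeR 4.0.16 (R 4.3.3), and p-values were adjusted by Benjamini-Hochberg over all genes tested with a threshold of 0.05. A count of 3 corresponds to 0.528 to 0.806 CPM, for counting error only. Within-gonad ratios were tested by exact permutation (Python 3.11.15, numpy 2.4.6), and intervals for them hold the shifts not rejected at 0.05 in steps of 0.01. The edgeR fit was tested on simulated counts. The ratio test was run on a single set of simulated ratios with a known shift far above their spread. That run cannot show how the test does with small shifts like those measured here. The correlation within testes was not tested in this way. The Piwi genes, the gene lists and the tests were chosen with earlier results of these data known. All genes of the piRNA and Argonaute lists, at most 4 of each other list by size of the averaged fold change, and the 5 genes most like each Piwi gene could be named. dazl is named also as the denominator of ratios. Alternatives were DESeq2 1.42.0, RLE and upper-quartile factors, no filter or at least 10 counts in every gonad, only the groups compared, robust dispersion, an additive model, a replicate block and each gonad left out.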

Additional observations from a re-analysis of the deposited data

Results flagged for a closer look

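In the 25 dpf testes, the second testis lay far from the other 3 for 2 genes of the piRNA pathway, out of 29 measures examined in this group of 4, of which chance flags about 1 in 20. tdrd7a, a Tudor domain gene of germ granules, stood at 299 CPM in it and at 225 to 230.4 CPM in the other 3. tdrd1 stood at 5.81 CPM in it and at 2.87 to 3.26 CPM in the other 3, all far below the gonads with high tdrd1. Neither piwil1 nor piwil2 was set apart in this testis.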

How the results depend on the processing

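The calls of piwil1 and piwil2 averaged over both ages and at 30 dpf held under all 8 alternatives and whichever gonad was left out, with averaged log2 differences of 0.89 to 1.08 for both genes under the alternatives. Upper-quartile scaling moved the median of all genes to -0.27 from -0.13. At 25 dpf, with gonads left out, the difference was 0.69 to 0.74 for piwil1 and 0.74 to 0.94 for piwil2, and both calls were lost without the second ovary. Genes called higher in ovaries at 25 dpf (1666) were 850 with only the groups compared, 937 with the replicate block and 81 to 1774 with gonads left out, and of the piRNA pathway (10) they were 6, 6 and 1 to 11. Averaged over both ages, 4108 genes were called higher in testes, and 2139 to 4245 with gonads left out. For the dependence on age (0 called), DESeq2 called 65, and no filter, at least 10 counts and robust dispersion 1 each, with 0 to 5 with gonads left out. DESeq2 gave piwil1 0.70 for this dependence and 0.58 between the ages of ovaries, both past the threshold. Between the ages of ovaries (0 called), DESeq2 called 139 and leaving gonads out 0 to 3. Between the ages of testes (1 called), DESeq2 called 353, upper-quartile scaling, only the groups compared and the replicate block 0 each, no filter and robust dispersion 7 each and at least 10 counts 12, with 0 to 70 with gonads left out. There the difference of piwil2 (-0.04) was 0.024 with the replicate block, and -0.066 to 0.023 with gonads left out. With gonads left out, the ovary minus testis difference of the piwil1 to piwil2 ratio was -0.043 to 0.062, and r of the genes within testes was -0.15 to 0.75. The cause of these changes was not tested.

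Equal replicate numbers did not pair the gonads: the 15 pairs of equal number had a mean r of -0.0034 (-0.24 to 0.14), and 4 of 12 gonads correlated best with their own number. Beyond the counts given above, the replicate block changed no call of piwil1 or piwil2. With 2 ovaries at 25 dpf, a lone gonad left in a group is assumed to vary like the others. Levels near 3 counts, as for gtsf1 in ovaries, are set by counting error.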

Other observations

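Deviations from the group means, which leave out the split of sexes and ages, were compared over the 12 gonads as a description. Those of piwil1 and piwil2 had an r of 0.54, those of piwil1 and ddx4 0.72 and those of piwil2 and ddx4 0.45. With dazl the r was 0.067 for piwil1 and -0.60 for piwil2. The points share libraries and depth.

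Somatic and foreign markers varied widely between the testes. The summed Sertoli genes stood at 1277 to 6392 CPM in 30 dpf testes and 349 to 1402 CPM in 25 dpf testes, beside piwil1 at 1028 to 1103 CPM in 30 dpf testes and 1060.0 to 1254 CPM in 25 dpf testes. Averaged over both ages, 21.3% of all genes tested were called higher in testes. Of 4 Leydig genes 3 were lower in ovaries in this comparison. Of 3 leukocyte genes 1 was lower, and of 4 muscle, liver and gut genes 1 was lower, both near that share. Of 2 genes each for the granulosa and steroid cells of the ovary, late male germ cells and erythrocytes, 0 passed in edgeR in that comparison. The summed muscle, liver and gut genes stood at 89.1 to 2049.5 CPM in 25 dpf testes, with a median of 816 CPM. They stood at 40.6 to 162 CPM in 30 dpf testes and at 13.4 to 111 CPM in all ovaries. Their part in the differences at 25 dpf and in the dependence on age was not tested.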
